A study of Mus musculus with 4 samples.

Results

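The genes described here are the induced genes of the type I interferon response, a fixed list of 35 mouse symbols. They were followed through every probe set annotated to 1 of these symbols alone. Of the 35, 33 were measured, by 55 probe sets, among 18193 genes measured in all. Ifi44 had no probe set of its own in the annotation used here. Isg15, a ubiquitin-like modifier, was annotated only to a probe set shared with another gene, so neither of these 2 genes was analysed here. The rule that picks the probe sets uses no measured value, but the list was drawn up with earlier results of these data known.

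RNA came from cells sorted from the bone marrow of adult NOD/SCID mice of the strain NOD.CB17-Prkdcscid/J, described as recipients. All samples share the scid mutation, which leaves mice without functional lymphocytes of the B and T lineages. The gate was meant for osteoblasts: cells positive for CD51, an integrin chain, and negative for CD45, CD31, Sca1 and lineage antigens. The samples came either from the trabecular bone area (2 arrays) or from the long bone area (2 arrays), and the labels name no other treatment. The labels call the arrays of an area biological replicates and do not say which mice they came from, so p-values reflect the spread among these samples alone, which may be technical. The labels also do not say how many mice were pooled or what the animals had received. In sorted bulk RNA of this kind, fewer cells of a type and less RNA per cell cannot be told apart.

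Type I interferons are cytokines that cells release when sensors such as RIG-I and MDA5 meet foreign or misplaced nucleic acid. They bind the receptor chains IFNAR1 and IFNAR2, whose kinases JAK1 and TYK2 activate STAT2. A complex of STAT2 with IRF9 binds the interferon-stimulated response element in front of its target genes. The targets include RNA-degrading, RNA-binding and membrane-bound antiviral proteins, the sensors themselves, and the machinery that loads peptides onto MHC class I. In marrow, interferon is known to act on blood stem cells, on osteoclasts and on bone-forming cells, and most cells keep a low basal level of these transcripts.

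The response element is visible in the promoters of members that differed in opposite directions between the areas. RefSeq windows of GRCm38.p6, from 250 bases before to 50 after a start site, were held for 27 of the 35 genes, 25 of them measured. The core GAAA-NN-GAAA, searched on both strands, was present in 13 of these 27 genes, or 48.1%, against 3.99% of 27025 genes in the same table. Among the measured members with a window it was in 5 of the 14 whose trabecular values both lay above the long bone values, and in 7 of the other 11. It was in 6 of the 7 whose difference was below 0. It was not in the windows of Oasl1, Oasl2, Ifit2, Irf1, Irf7, Irf9, Psmb8, Psmb9, Tap1, Trim25, Ifi35, Xaf1, Isg20 or the unmeasured Ifi44. An element with other letters would not be found by this search. A match is a run of letters and not a shown binding site. The 250 bases before the start are printed 5′ to 3′ on the gene's strand, with the core in capitals, for Ifit1 and Oas3, which were higher in the trabecular samples, and for Bst2 and Rsad2, which were not. Ifit1 lies on the plus strand (chr19:34640639-34640888), Oas3 on the minus strand (chr5:120777660-120777909), Bst2 on the minus strand (chr8:71537473-71537722) and Rsad2 on the minus strand (chr12:26456453-26456702).
Ifit1: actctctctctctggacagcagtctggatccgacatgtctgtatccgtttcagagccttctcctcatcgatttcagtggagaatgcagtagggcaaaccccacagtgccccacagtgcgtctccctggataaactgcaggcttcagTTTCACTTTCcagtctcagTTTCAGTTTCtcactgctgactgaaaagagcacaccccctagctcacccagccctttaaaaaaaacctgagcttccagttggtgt
Oas3: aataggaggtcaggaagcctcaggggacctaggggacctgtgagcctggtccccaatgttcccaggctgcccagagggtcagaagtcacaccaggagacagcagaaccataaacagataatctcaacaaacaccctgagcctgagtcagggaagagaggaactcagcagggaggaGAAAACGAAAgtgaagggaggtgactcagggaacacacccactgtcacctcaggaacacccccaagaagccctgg
Bst2: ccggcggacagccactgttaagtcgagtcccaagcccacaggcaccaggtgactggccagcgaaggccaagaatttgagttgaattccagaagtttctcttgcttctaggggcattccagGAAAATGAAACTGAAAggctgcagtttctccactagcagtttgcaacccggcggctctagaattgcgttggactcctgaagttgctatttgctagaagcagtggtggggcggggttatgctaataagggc
Rsad2: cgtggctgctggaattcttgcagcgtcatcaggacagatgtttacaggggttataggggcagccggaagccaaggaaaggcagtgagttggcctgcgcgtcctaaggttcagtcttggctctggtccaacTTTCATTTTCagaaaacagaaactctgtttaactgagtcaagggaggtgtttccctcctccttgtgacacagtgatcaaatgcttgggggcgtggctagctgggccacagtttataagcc
Ifit1 has 2 separate cores, starting 104 and 85 bases before the start site. Bst2 has 2 that overlap, and Oas3 and Rsad2 have 1 each. Psmb9 and Tap1 stand head to head, with 225 bases between their start sites (chr17:34187331-34187555, plus strand, read in the direction of Tap1). That stretch is printed because both genes are members and share it, and it holds no GAAA-NN-GAAA.
Tap1-Psmb9: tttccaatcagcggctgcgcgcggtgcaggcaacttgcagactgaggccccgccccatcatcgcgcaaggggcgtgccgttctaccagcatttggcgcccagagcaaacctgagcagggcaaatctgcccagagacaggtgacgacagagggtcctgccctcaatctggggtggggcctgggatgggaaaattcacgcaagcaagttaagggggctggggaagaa

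Each value is a log2 expression from which the probe set's own 4-array median was taken away, so a gene carries differences and no level, and the middle values of a single probe set mirror each other around 0. A gene is the mean of its probe sets. Long bone array 2 stood apart, where 2493 probe sets lay 2-fold or more away from their median, while the other arrays had 383 to 848 such probe sets. All 16 spiked hybridisation control probe sets were lower on both trabecular arrays (median log2 difference -0.50), while 9 of 10 measured reference genes were higher there (median 0.38). The number step of the deposited values allows a coarse reading of brightness. The step of levels of 8 and above was found in at least 1 probe set for 8653 of 18193 genes. Counted in this way, it was found for 14 of 17 measured neutrophil genes and 10 of 19 monocyte and macrophage genes. The count was 2 of 10 for endothelial, 1 of 13 for chondrocyte and 2 of 12 for reticular stroma and adipocyte genes. It was 5 of 12 for erythroid, 6 of 12 for plasmacytoid dendritic cell and 3 of 12 for B lineage genes. T and NK cell genes had 4 of 13, and megakaryocyte and platelet genes 1 of 7. The step had to hold on all 4 arrays, so a gene below that level in 1 area is not counted, however bright in the other. All 13 chondrocyte genes were lower in the trabecular samples, with a median of -3.03. Ptprc, the CD45 gene, had this step in 1 of its 2 probe sets. The same step was found for 3 of 9 measured osteoblast markers, Alpl, Col1a1 and Sparc, and all 9 were lower in the trabecular samples, with a median of -1.57. Their part in the values below was not tested. With 2 arrays per area, the number of arrays limits the precision of every value.

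Most interferon response genes were higher in the trabecular samples. Of the 33 measured members 25 had a difference above 0, against 54.6% of all genes, and 8 had one below 0, against 45.4%. Among them, 17 had no overlap between the areas in that direction, against 29.9% of all genes. Only Mx1 and Eif2ak2 were lower without overlap, where 21.4% of all genes were. The median log2 difference, trabecular minus long bone, was 0.27 over the members and 0.029 over all genes. No member passed the test: with limma, an adjusted p under 0.05 was reached by 0 of 33 members and 0 of 18193 genes (0%), and the lowest among members was 0.240, for Ifih1 and Psmb9. At an unadjusted p under 0.05 there were 9 members higher and 1 lower, against 10.8% and 4.62% of all genes.

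**Figure D1:**
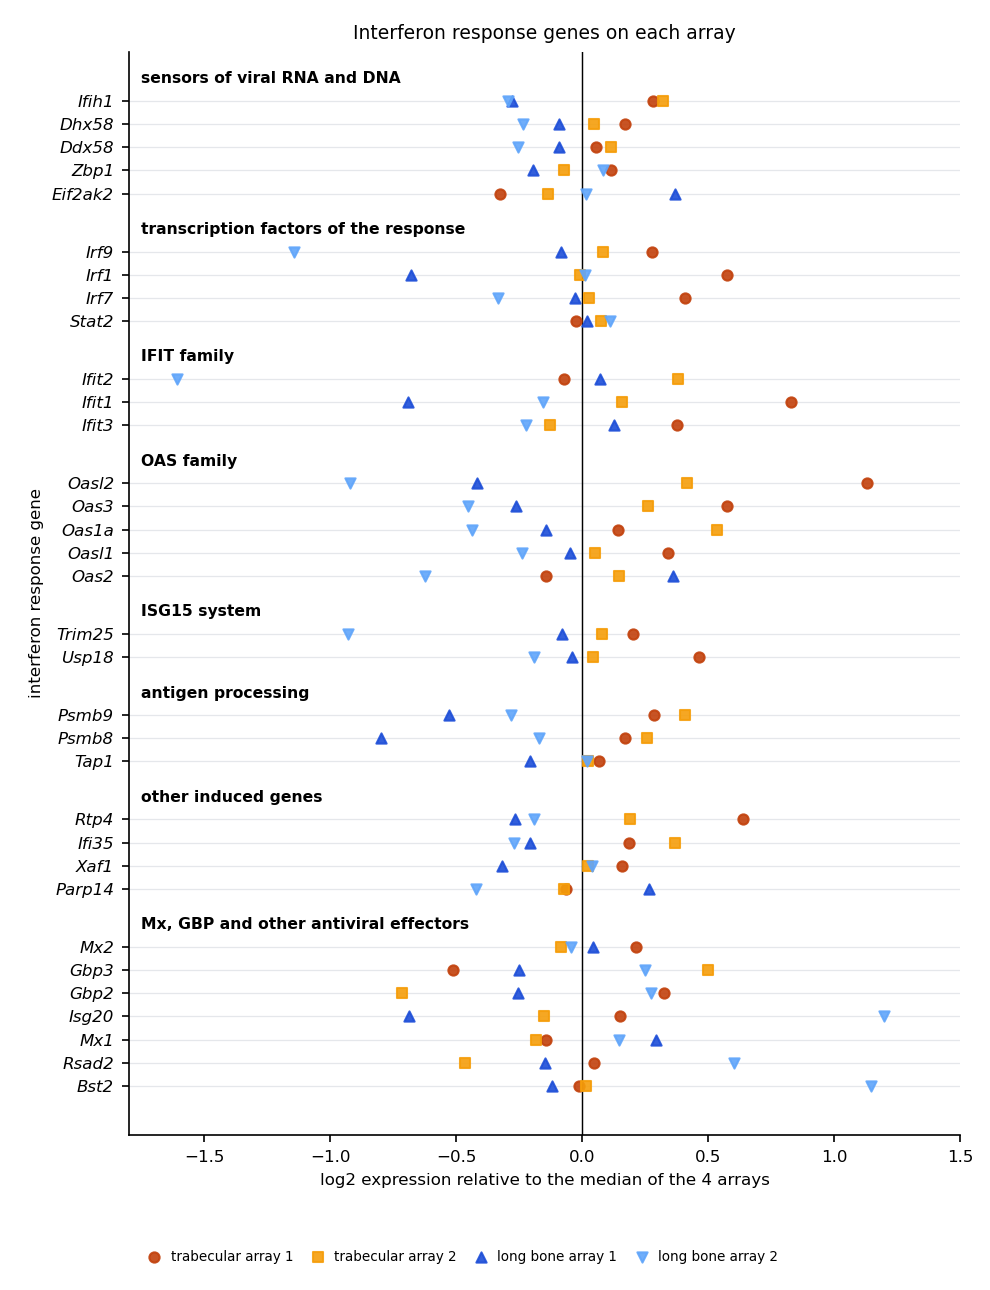
Log2 values of each of the 33 measured genes on the 4 arrays, centred on each probe set's median, ordered by role and then by difference. Circles and squares are trabecular arrays 1 and 2, and triangles pointing up and down are long bone arrays 1 and 2. Oasl2 spans 1.13 to -0.92, while in the last group 3 of 7 genes, Isg20, Rsad2 and Bst2, are highest on long bone array 2.

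Brightness moved with these counts. Of 3974 genes for which every probe set showed the step of levels 8 and higher, 74.3% were higher in the trabecular samples and 46.9% were so without overlap (11% were lower without overlap), with a median of 0.26. Of the 14 members of that kind 13 were higher and 9 without overlap, with a median of 0.62. The other 19 members had a median of 0.14, with 12 higher. The part that brightness plays in the members' shift was not tested. The size of the shift also depended on the scaling. When each array was shifted by its mean over the reference genes, the median of all genes moved to -0.26 and that of the members to -0.015, with 16 of 33 above 0 and 0 called, against 0.264% of all genes. When arrays were shifted by the spiked controls, the medians were 0.51 and 0.75, Bst2 alone stayed below 0, and 21 of the 33 members had a limma adjusted p under 0.05, against 49.3% of all genes. Under either shift the members' median lay 0.24 above that of all genes, as it must, and 24 of the 33 members lay above the median of all genes.

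**Figure D2:**
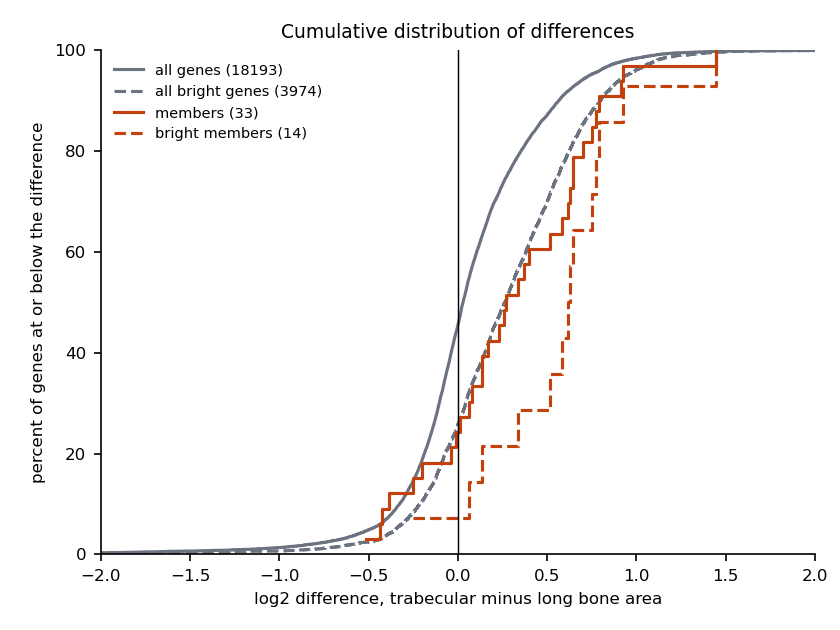
Cumulative share of genes, in percent, by log2 difference between the areas, for all 18193 genes, the 3974 bright genes, the 33 members and the 14 bright members. Bright means that every probe set of the gene has the number step of levels of 8 and above. The curve of the members lies to the right of that of all genes over most of its length and close to that of the bright genes, and the curve of the bright members lies further right.

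The arrays did not contribute evenly. Of the 33 members 17 were highest on trabecular array 1 (28% of all genes) and 16 were lowest on long bone array 2 (32.4% of all genes). The median member stood at 0.17 and 0.049 in the trabecular area and at -0.14 and -0.19 in the long bone area. Only 4 members were highest on long bone array 2 (35.2% of all genes), and 10 were lowest on long bone array 1 (24.6% of all genes). The arrays of an area were thus closer to each other than to the other area in the median, while single members varied more. The median difference was 0.21 without trabecular array 1 and 0.42 without trabecular array 2.

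**Figure D3:**
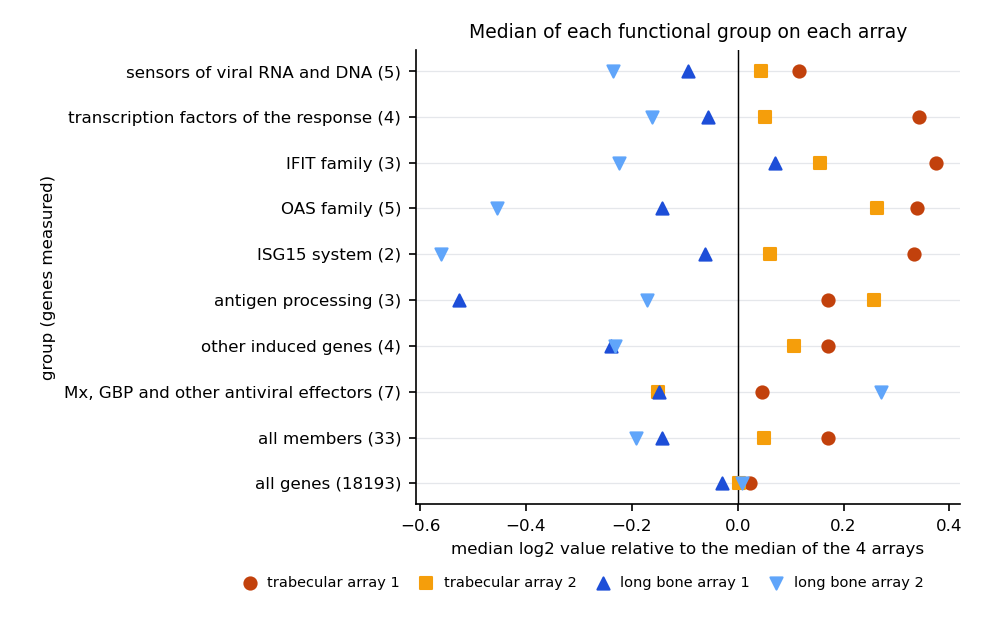
Median log2 value of each functional group on each array, relative to the median of the 4 arrays, with the number of genes measured in brackets. In the OAS family the trabecular medians are 0.34 and 0.26 and the long bone medians -0.14 and -0.45, and the group of Mx, GBP and other effectors is highest on long bone array 2, at 0.27.

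Enzymes of the OAS family make a second messenger that activates RNase L upon contact with double-stranded RNA, and some members of the family act without it. All 5 measured members were higher in the trabecular samples, 4 without overlap, where 54.6% and 29.9% of all genes were. Of the 3974 genes bright in every probe set, as these 5 are, 74.3% were higher and 46.9% without overlap. Oas2 turned to -0.15 with reference gene scaling and to -0.05 with quantile normalization. Oasl2, an OAS-like protein with ubiquitin-like domains, had values of 1.13 and 0.42 in the trabecular area and of -0.42 and -0.92 in the long bone area, arrays 1 and 2 in that order as in all sentences below. Both trabecular values lay above both long bone values, and the log2 difference was 1.44 (SE 0.31, 95% interval 0.61 to 2.28, limma adjusted p = 0.243). Oasl2 ranked 37 among all genes by difference and was the only member at least 2-fold apart, which 266 genes (1.46%) were in this direction without overlap. Leaving out any array kept it between 1.09 and 1.80.

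Oas3, an enzyme with a preference for long double-stranded RNA, was at 0.57 and 0.26 in the trabecular area and at -0.26 and -0.45 in the long bone area. Its areas did not overlap (difference 0.78, 95% interval 0.33 to 1.22). Oas1a, which shares close relatives in the mouse genome that may hybridise to its probes, was at 0.14 and 0.54 against -0.14 and -0.44. It differed by 0.63 (SE 0.20), again without overlap. Oasl1, known to restrain the translation of Irf7, differed by 0.34 (0.19 without trabecular array 1), while Oas2 differed by 0.13 and overlapped, with its highest value, 0.36, on long bone array 1. All 5 were lowest on long bone array 2, and all 5 showed the number step of levels 8 and higher.

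The IFIT proteins bind viral RNA that lacks the host cap marks. Ifit1 was at 0.83 and 0.16 on the trabecular arrays and at -0.69 and -0.16 on the long bone arrays. It was 1.89-fold higher without overlap (log2 difference 0.92, SE 0.31, limma adjusted p = 0.300), and at 0.58 without trabecular array 1. Ifit2 was at -0.07 and 0.38 against 0.07 and -1.61. Its difference of 0.92 came with overlapping areas and a 95% interval of -0.65 to 2.49, because long bone array 2 alone was low, and without that array it was 0.08. Ifit3 differed by 0.17, overlapped, and turned to -0.12 with reference gene scaling. The family thus had 3 of 3 members above 0 on the deposited scale, with 1 free of overlap, where 54.6% and 29.9% of all genes were.

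Among the sensors, Ifih1 (MDA5) was the tightest member of all. It was at 0.28 and 0.32 on the trabecular arrays and at -0.28 and -0.29 on the long bone arrays. The difference of 0.59 (SE 0.12, 95% interval 0.27 to 0.90) stayed between 0.56 and 0.61 with any array left out. The relatives Ddx58 (RIG-I) and Dhx58 (LGP2) differed by 0.26 and 0.27, both without overlap, and turned to -0.029 and -0.015 with reference gene scaling. The probe sets of Ddx58 disagreed, with differences of 0.54, 0.65 and -0.41, and their median gave 0.40. The median of the 5 sensors was 0.26 on the deposited scale and -0.029 with reference gene scaling. Zbp1, a sensor of left-handed nucleic acid, differed by 0.079 and overlapped.

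Eif2ak2, the kinase PKR that halts translation on double-stranded RNA, went against the other sensors. It was at -0.32 and -0.14 in the trabecular area and at 0.37 and 0.02 in the long bone area, lower without overlap (difference -0.42, 95% interval -0.89 to 0.05). The difference was -0.25 without long bone array 1 and -0.18 with the median of its probe sets. This rested on 1 of its 3 probe sets, which differed by -1.12, while the others differed by 0.082 and -0.22. None of the 3 showed the number step of bright probe sets.

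Of the transcription factors, Irf9, the DNA-binding partner of STAT2, was at 0.28 and 0.08 against -0.08 and -1.14. It differed by 0.79 without overlap (95% interval -0.21 to 1.80), and by 0.26 without long bone array 2. Irf7, the amplifier of interferon production, was at 0.41 and 0.03 against -0.03 and -0.34. Its difference of 0.40, also without overlap, was 0.21 without trabecular array 1. Irf1, a factor that interferon gamma induces strongly, was at 0.57 and -0.01 against -0.68 and 0.01. It overlapped narrowly (difference 0.62, 95% interval -0.24 to 1.47) and was at 0.27 without long bone array 1 and 0.32 without trabecular array 1. Stat2 differed by -0.040, with values between -0.03 and 0.11 on all arrays and probe sets of opposite sign.

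The immunoproteasome subunits and the peptide transporter, which interferon gamma also induces, showed another array pattern. Psmb9 was at 0.28 and 0.41 on the trabecular arrays and at -0.53 and -0.28 on the long bone arrays. The areas were apart by 0.75 (SE 0.15, 95% interval 0.36 to 1.14, limma adjusted p = 0.240), and by 0.63 to 0.87 with any array left out. Psmb8 was at 0.17 and 0.26 against -0.80 and -0.17, a difference of 0.70 without overlap that was 0.39 without long bone array 1. Its 2 probe sets gave 0.67 and 0.73. Tap1, which shares its promoter stretch with Psmb9, differed by 0.14, by 0.024 without long bone array 1, and turned to -0.15 with reference gene scaling. Tap1 is counted as free of overlap, but trabecular array 2, at 0.022, lay barely above long bone array 2, at 0.019. Of its 4 probe sets 1 differed by 0.50 and the others by 0.034 at most. All 3 genes were lowest on long bone array 1, where the OAS family was not.

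The ISG15 system attaches and removes that modifier. Trim25, a ubiquitin ligase that activates RIG-I, was at 0.20 and 0.08 against -0.08 and -0.93. It differed by 0.65 without overlap and its 3 probe sets shared the direction, but without long bone array 2 the difference was 0.22. Usp18, the protease that removes ISG15 and dampens receptor signalling, was at 0.46 and 0.04 against -0.04 and -0.19. It differed by 0.37, and by 0.16 without trabecular array 1.

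Among the remaining induced genes, Rtp4, a Golgi-associated chaperone of receptors, was at 0.64 and 0.19 against -0.27 and -0.19. It differed by 0.64 without overlap (SE 0.19, 0.42 without trabecular array 1), and its 2 probe sets gave 1.06 and 0.23. Ifi35, a partner of Nmi, was at 0.19 and 0.37 against -0.21 and -0.27. Its 3 probe sets gave 0.45 to 0.63 and the gene differed by 0.52 (95% interval 0.16 to 0.87). Xaf1, a pro-apoptotic partner of XIAP, differed by 0.23 (0.052 without long bone array 1), and Parp14, a mono-ADP-ribosyltransferase, by 0.0095. Both overlapped, both turned sign with reference gene scaling, and each had probe sets of opposite sign.

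**Figure D4:**
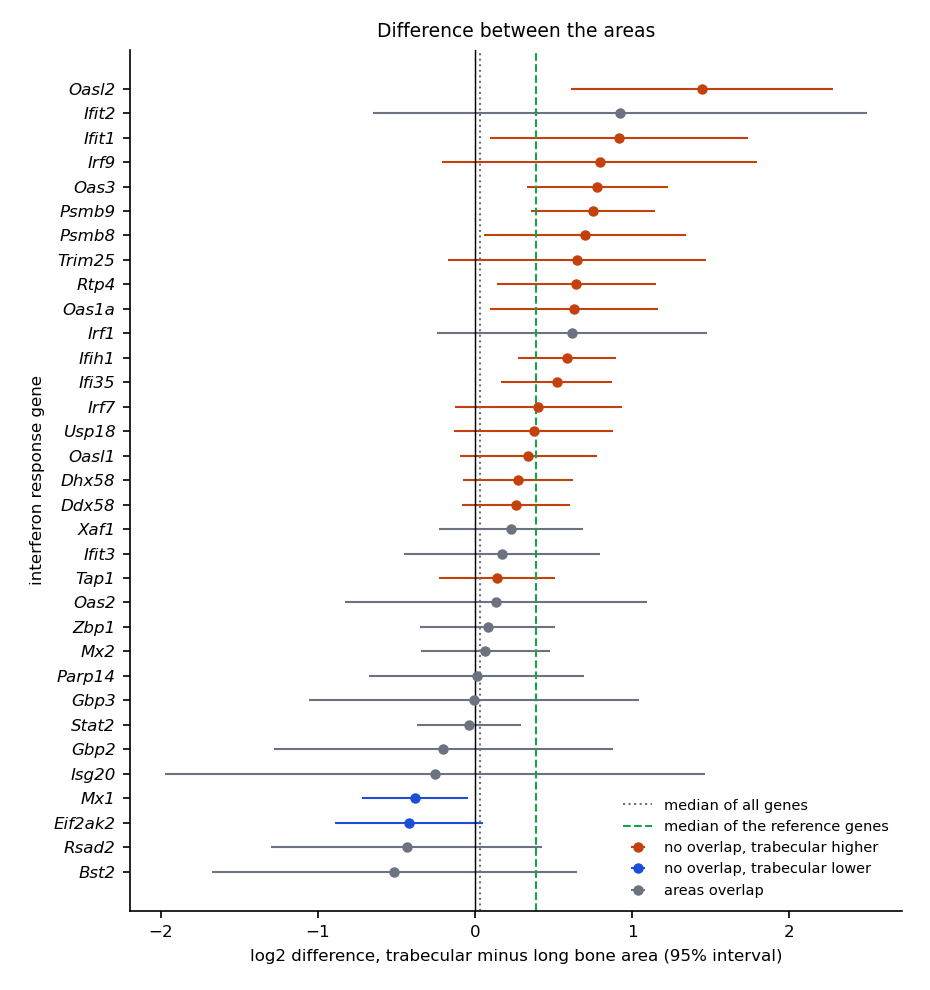
Log2 difference, trabecular minus long bone area, of the 33 measured genes with the 95% interval of the moderated fit, in order of size. Colours mark genes whose areas do not overlap, the dotted line is the median of all genes (0.029) and the dashed line that of the reference genes (0.38). The interval of Oasl2, at 0.61 to 2.28, lies above both lines, and those of 9 higher genes exclude 0.

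Membrane-bound, GTPase and nuclease effectors did not share the direction. Of the 7 measured, Mx2 alone had a difference above 0 (0.065, and -0.22 with reference gene scaling), while the 6 others ran from -0.008 to -0.51. Of these 6, Isg20 and Gbp3 turned above 0 with quantile normalization. Bst2 (tetherin), which holds budding virus at the cell surface, was at -0.01 and 0.01 on the trabecular arrays and at -0.12 and 1.15 on the long bone arrays. Long bone array 2 alone stood apart, and the difference of -0.51 (95% interval -1.68 to 0.65) was 0.12 without it. Isg20, an RNA exonuclease, was at 0.15 and -0.15 against -0.69 and 1.20. It too was highest on long bone array 2, and its difference of -0.25 was 0.69 without that array and -1.20 without long bone array 1.

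Rsad2 (viperin), which makes a chain-terminating nucleotide, was at 0.05 and -0.47 against -0.15 and 0.60. It was likewise highest on long bone array 2, its difference of -0.44 was -0.06 without that array, and only 1 of its 3 probe sets was free of overlap, at -1.12. On that array the reticular stroma and adipocyte markers had a median of 1.43, with 11 of 12 highest there (35.2% of all genes). Their medians were 0.10 and -0.56 for the trabecular samples and -0.13 for the other long bone sample. Other marker lists were often highest there too: 6 of 7 megakaryocyte and platelet genes, 9 of 12 B lineage genes, 7 of 12 plasmacytoid dendritic cell genes and 7 of 12 erythroid genes. Of the neutrophil genes 2 of 17 were, and of the chondrocyte genes 4 of 13. Summed levels cannot be formed from centred values, and the part of these markers in the values of Bst2, Isg20 and Rsad2 was not tested.

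Mx1, a dynamin-like GTPase that blocks influenza virus and for which many inbred mouse strains carry defective alleles, was at -0.14 and -0.19 against 0.29 and 0.14. It was 1.30-fold lower without overlap (log2 difference -0.38, 95% interval -0.72 to -0.05, limma adjusted p = 0.296) and stayed between -0.31 and -0.46 with any array left out. The guanylate-binding proteins Gbp2 and Gbp3, which attack vacuoles of pathogens, overlapped. Gbp2 was at 0.33 and -0.71 against -0.25 and 0.27 (difference -0.20), and Gbp3 was at -0.51 and 0.50 against -0.25 and 0.25 (difference -0.008). The trabecular arrays themselves differed by more than the areas for both genes.

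**Figure D5:**
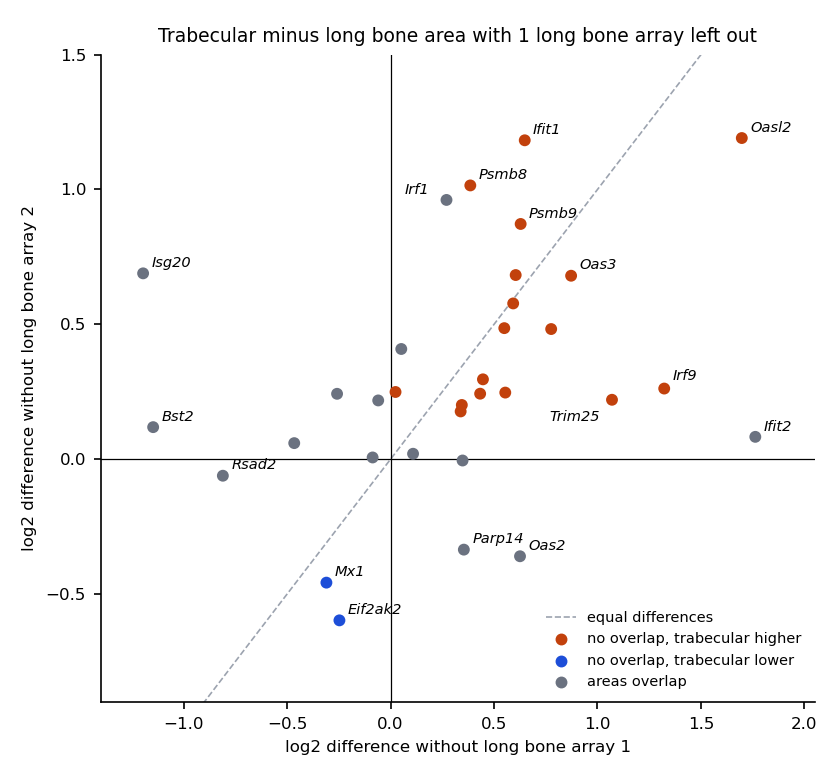
Log2 difference between the areas for each of the 33 measured genes, without long bone array 1 on the horizontal axis and without long bone array 2 on the vertical axis. Points on the dashed line do not depend on which array is left out. Ifit2 (1.76 and 0.08), Irf9 (1.32 and 0.26) and Trim25 (1.07 and 0.22) lie far below the line, and Isg20 (-1.20 and 0.69) and Bst2 (-1.15 and 0.12) far above it.

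The test gave calls among the members when long bone array 1 was left out, so that the spread came from the trabecular pair, and the lone long bone array was assumed to vary like it. Then 5 members had a limma adjusted p under 0.05, against 8.81% of all genes. Ifit2, Irf9 and Trim25 were higher in the trabecular samples (5.79% of all genes), and Bst2 and Isg20 lower (3.02%). These are the members on which the remaining long bone array 2 stood farthest out.

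The pathway in front of these genes was measured by lists made for this comparison. No gene of these lists had an adjusted p under 0.05 with limma. For the list counts here and below, 54.6% of all genes were above 0. Without overlap 29.9% of all genes were higher and 21.4% lower. Counts and medians are those of the deposited scale: with reference gene scaling the list medians lay below 0 for pathways that induce interferon (-0.22), negative regulators (-0.091), further induced genes (-0.061) and NF-kB targets (-0.037), and stayed above 0 for receptors (0.084) and MHC class I (0.16). Of 9 interferon ligand genes 4 were above 0 and 5 below, with a median of -0.024 and a range of -0.26 to 0.14. Only 9 of 18 listed ligands were measured, and 2 of them had a probe set at the step of levels of 8 and above. Small differences among dim probe sets say little about the ligands. Leaving out 1 array moved the median to between -0.14 and 0.034. Ifnb1, the interferon that most cells make first, was at 0.01 and -0.08 against -0.01 and 0.13 (difference -0.09), and Ifng, the type II interferon of lymphocytes, differed by -0.15. The largest ligand differences were -0.26 for Ifna2 and 0.14 for Ifnab.

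Receptor chains and their kinases and STAT proteins were above 0 in 9 of 10 cases, with a median of 0.37, and 3 were so without overlap, a share close to the 29.9% of all genes. Ifnar2, a chain of the type I receptor, differed by 0.59 (0.29 and 0.04 against -0.27 and -0.59) and Ifngr1, a chain of the interferon gamma receptor, by 0.62 with overlap. Ifnar1, the other chain, differed by 0.047 and Tyk2 by -0.042. The list followed long bone array 2, on which 8 of the 10 genes were lowest, and its median was 0.019 without that array and 0.75 without long bone array 1.

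Pathways that switch interferon on were above 0 in 12 of 18 cases, with a median of 0.072 that was 0.15 without trabecular array 1 and 0.014 without long bone array 2. Tlr7, a receptor for single-stranded RNA, was at 0.35 and 0.37 against -0.76 and -0.28 (difference 0.88), and the adaptor Myd88 at 0.79 and 0.29 against -0.29 and -0.35 (difference 0.86), both without overlap. Irf8 and Sting1 differed by -0.37 and -0.23. Of negative regulators 12 of 15 were above 0, with a median of 0.20 that was 0.021 without long bone array 2, 0.11 without trabecular array 2 and 0.35 without long bone array 1. Irf2, a repressor that competes for the response element, was at 0.51 and 0.38 against -0.38 and -0.42 (difference 0.84), and Socs3, a feedback inhibitor, at 0.21 and -1.37 against -0.21 and 1.60 (difference -1.27, overlapping).

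A wider list of interferon-induced genes, none of them a member, went both ways. Of 48 measured 31 were above 0, with a median of 0.23 that was 0.097 without long bone array 2. Without overlap 17 were higher and 8 lower, where 29.9% and 21.4% of all genes were. Lgals9, a galectin, differed by 1.30 and Nmi, a STAT-binding protein, by 1.21, both without overlap. Ifi204, a DNA-binding protein of the p200 family, and the GTPase Iigp1 differed by -1.26 and -1.09 without overlap, and both were highest on long bone array 2, at 1.35 and 1.57. MHC class I genes and their loading were above 0 in 12 of 13 cases, 10 without overlap, with a median of 0.45. Tapbp, which tethers class I to the transporter, differed by 0.68 and H2-K1 by 0.64, and 9 of the 13 were lowest on long bone array 1, as Psmb8, Psmb9 and Tap1 were. Nlrc5, the class I transactivator, was the exception at -0.014. B2m, at 0.45, is on this list and among the reference genes.

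Targets of NF-kB, a factor that inflammatory signals activate, had 12 of 19 above 0, where 54.6% of all genes were. Without overlap 1 target was higher and 3 were lower, against 29.9% and 21.4% of all genes. The targets' median of 0.25 was -0.19 without long bone array 1, -0.12 without trabecular array 1 and 0.44 without trabecular array 2. Cxcl2 differed by 1.30 and Tnfaip3 by 1.16, both overlapping, and Il6 by -2.65 and Cxcl1 by -1.41 without overlap.

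Markers of other cells that a marrow sort could hold moved with the areas to different degrees. Of all genes 54.6% were above 0, and without overlap 29.9% were higher and 21.4% lower. Of 17 neutrophil genes 12 were above 0, 6 of them without overlap and none lower without overlap, with a median of 0.079 that was 0.27 without trabecular array 1. A bright probe set was found for 14 of these 17. Of the 3974 genes bright in every probe set 74.3% were above 0 and 46.9% were higher without overlap. Of 19 monocyte and macrophage genes 10 were above 0 and 9 below, with 5 higher and 7 lower without overlap, and the median of 0.046 was -0.20 without trabecular array 1. The monocyte list ran from -1.04 for C1qb, a complement subunit of macrophages, to 1.68 for Itgam, a myeloid integrin. Plasmacytoid dendritic cells are known for making large amounts of interferon. Of their 12 genes 4 were above 0, and the median of -0.23 was 0.00094 without long bone array 2. Of 12 B lineage genes 1 was above 0, with a median of -0.21 that was 0.035 without that array. Of 13 T and NK cell genes 4 were above 0 and 9 below, with a median of -0.058. That list ran from -0.23 to 1.66, the latter for Cd3d. All 13 chondrocyte genes were lower in the trabecular samples, with a median of -3.03. The part of these cells in the interferon values was not tested.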

How the data were processed

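RNA was extracted, amplified, labelled with biotin and hybridised, per the labels' protocols and design text. The latter mentions a human chip, but the 45101 probe sets have mouse array names and were used as such. The deposited values were taken as log2 expression. RMA is named in the submitters' processing notes, without a version, and no source used here gives the log base. The values were also centred: each probe set has a median of 0 over the 4 arrays, within 1e-06.

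Of 45037 probe sets left without 64 controls, 34945 had 1 gene and were averaged per gene. The number step of 32-bit values, read for 42073 probe sets, separates levels of 8 and above (34.7%) from lower ones, and some dimmer probe sets fall on the coarser step by chance. The difference between areas was fitted over all genes by limma (version 3.58.1, under R 4.3.3) with untrended moderated variances, 2 residual degrees of freedom and two-sided tests, without the replicate number as a block, with Benjamini-Hochberg adjustment at 0.05. Fits were tested on simulated data. Arrays were checked for copies, and any pair shared 65 to 107 identical values.

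All measured members are named, and other pathway genes by the largest differences of their list. Ifnb1, Ifng, Ifnar1, B2m and the single marker genes were named outside this rule, after their values were seen. Promoter sequences are RefSeq's, of GRCm38.p6. Members and lists were chosen with earlier results of these data known. Alternatives were other scalings, probe set medians, bright probe sets, single probe sets, other prior variances, the replicate block and leaving out each array.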

Additional observations from a re-analysis of the deposited data

How the results depend on the processing

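The precision is limited by 2 arrays per area. With each array left out in turn, the members' median difference ran from 0.21 to 0.42, the members above 0 from 24 to 27, those without overlap from 24 to 27 (fewer arrays make this easier to meet), the genes called from 0 to 1603 and the members called from 0 to 5. Reference gene scaling gave a median of -0.015, 16 members above 0 and 48 genes called, all lower. Spiked control scaling, chosen after seeing the data, gave 0.75, 8967 genes called and 21 members called. Restricting to bright probe sets left 22 members, with a median of 0.56 and 19 above 0. All 8653 genes left had a median of 0.20, with 69.6% above 0. A trend in the prior variance called 40 genes (0.22%) and ordinary t statistics 1, with no member. The causes were not tested beyond what each scaling does by its construction.

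Of the 33 members 19 kept their sign in each setting run for them singly (up to 9, since 22 members had a bright probe set). Spiked control scaling is not among these, and under it Mx1, Rsad2 and Eif2ak2, which are among the 19, were above 0. With reference gene scaling Ifit3 turned to -0.12, Mx2 to -0.22, Oas2 to -0.15, Ddx58 to -0.029, Dhx58 to -0.015, Tap1 to -0.15, Xaf1 to -0.057, Parp14 to -0.28 and Zbp1 to -0.21. With quantile normalization Isg20 turned to 0.048, Oas2 to -0.050, Gbp3 to 0.092 and Parp14 to -0.16. With arrays left out the range was -0.079 to 0.42 for Ifit3, -1.20 to 0.69 for Isg20, -0.083 to 0.21 for Mx2, -0.36 to 0.63 for Oas2, -0.090 to 0.010 for Stat2, -1.15 to 0.12 for Bst2, -0.72 to 0.32 for Gbp2, -0.51 to 0.50 for Gbp3, -0.060 to 0.22 for Zbp1 and -0.34 to 0.35 for Parp14.

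Same-numbered arrays did not deviate together (r = -0.11 across genes, which are not independent replicates). The labels do not say whether same-numbered arrays share mice, and a correlation from so few arrays cannot decide it. The replicate block left the median at 0.27 and called 0 genes and 0 members, with 2450 genes at an unadjusted p under 0.05 against 2811. The crossed pairing, chosen after seeing the data, called 0 genes and 0 members, with 2709 genes at an unadjusted p under 0.05.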
